A study of Mus musculus and Rattus norvegicus with 18 samples.

Results

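The genes described here move calcium into, out of and around the sarcoplasmic reticulum, the calcium store of the muscle cell. They were taken by symbol: Atp2a2, Pln, Sln, Ryr2, Casq2, Trdn, Hrc, Asph, Jph2 and Slc8a1. All 10 are listed in each table used, among 55487 mouse genes in the heart RNA table, 17866 genes in the heart footprint table and 32883 rat genes in the H9C2 table. In the footprint table they have 42 open reading frames of 26398 in all.

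The series examined loss of Mettl1, the catalytic subunit of the enzyme that places N7-methylguanosine on a set of tRNAs. Hearts came from 4-week-old C57BL/6 mice that were either Ctrl or M1cKO, a conditional knockout of Mettl1 (called cKO below), with 2 RNA-seq and 2 Ribo-seq libraries per genotype. Ribo-seq sequences the stretches of RNA that ribosomes cover, here called footprints. The labels give neither the Cre driver nor the floxed alleles of either genotype, nor whether a library is 1 heart or a pool. H9C2 is a myoblast line that was derived from embryonic heart of the rat (strain label Sprague-Dawley). It had 3 RNA-seq libraries of WT control cells and 3 of M1-null cells. The null cells are 1 line with a Cas9-made frameshift in Mettl1, so its libraries repeat that line and not the editing. Where nothing says that libraries came from separate animals or cultures, the p-values measure the spread between these libraries, which may be technical.

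In a heart cell a small calcium current through the surface membrane opens Ryr2, the release channel of the sarcoplasmic reticulum, and the released calcium starts contraction. Casq2 binds calcium inside the store and is tied to Ryr2 by Trdn and by junctin, a product of Asph, while Hrc is a further calcium-binding protein of the lumen. Relaxation follows as the pump encoded by Atp2a2 returns calcium to the store under the restraint of phospholamban (Pln) and sarcolipin (Sln), and as the exchanger encoded by Slc8a1 sends calcium out of the cell. Jph2 holds the store close to the surface membrane where channel and release unit face each other.

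Libraries held 15052652 to 16844783 counts in heart RNA, 25171650 to 39675627 in heart footprints and 90321496 to 94202947 in H9C2. Levels are given as CPM, counts relative to library size with TMM scaling, and changes as the log2 of the ratio of knockout to control with its standard error (SE). A gene or frame was called where its p from edgeR's quasi-likelihood test, adjusted by Benjamini and Hochberg's method over every gene or frame tested, was under 0.05. Mettl1 itself stood at 4.31 and 3.76 CPM in Ctrl heart RNA against 2.49 and 2.52 in cKO (adjusted p = 0.0664). Its footprints were 6.21 and 6.58 CPM in Ctrl against 2.2 and 2.19 in cKO, and its H9C2 RNA was 15.6 to 16.6 CPM in WT against 3.75 to 4.72 in null cells. Known heart muscle genes were abundant in heart RNA, with Myh6 between 19620 and 22420 CPM. In H9C2, by contrast, Myl2 and Myl3 were listed at 0 in all 6 libraries, Myh6 and Actc1 did not exceed 0.117 CPM, and Tnnt2 alone of the listed cardiomyocyte markers passed 1 CPM.

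For 3 members the start-site DNA is shown first, because their RNA moved in opposite directions in the results below: Casq2 rose in cKO hearts, Pln and Hrc fell. The RefSeq promoter table (GRCm38.p6) held 6 of the 10 members. Each line gives the 250 bases before the annotated start, on the gene's own strand, at chr3:102086165-102086414 for Casq2, chr10:53337436-53337685 for Pln and chr7:45335019-45335268 for Hrc, all on the plus strand. Capitals mark a match to a MEF2 box in Casq2, and to TATAAA and the reverse of AGATAA in Pln.
Casq2: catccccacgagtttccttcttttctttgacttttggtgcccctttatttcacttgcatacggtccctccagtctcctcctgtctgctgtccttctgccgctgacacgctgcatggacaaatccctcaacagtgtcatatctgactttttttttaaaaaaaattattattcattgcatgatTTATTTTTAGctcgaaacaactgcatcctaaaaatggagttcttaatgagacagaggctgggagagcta
Pln: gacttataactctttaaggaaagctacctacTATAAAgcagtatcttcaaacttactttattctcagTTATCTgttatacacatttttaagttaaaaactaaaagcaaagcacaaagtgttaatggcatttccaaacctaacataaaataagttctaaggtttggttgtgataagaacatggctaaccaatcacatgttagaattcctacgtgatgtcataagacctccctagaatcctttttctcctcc
Hrc: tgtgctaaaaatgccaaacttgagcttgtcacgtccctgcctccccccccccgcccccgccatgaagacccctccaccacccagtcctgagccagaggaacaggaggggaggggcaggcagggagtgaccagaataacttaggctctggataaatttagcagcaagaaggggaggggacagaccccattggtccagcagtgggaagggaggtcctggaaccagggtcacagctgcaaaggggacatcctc
The MEF2 box of Casq2 begins 69 bases before the start. Across 32851 such windows of mouse genes 2.92% held that motif on either strand. In Pln the TATAAA match begins 219 bases and the AGATAA match 183 bases before the start, motifs that 12.4% and 9.99% of windows held. None of these motifs, nor a CArG box (1.47% of windows), was found in the Hrc window. The windows of Ryr2, whose RNA also fell, and of Jph2, whose RNA was not called, held none of them either. That of Slc8a1, not called in RNA, held AGATAA alone among them. CANNTG, found in 66.2% of windows, occurred in each of the 3 windows shown. The matches describe letters only, and binding was not measured.

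RNA of the pump, its inhibitor phospholamban and much of the release unit was lower in cKO hearts, and that of the calcium buffer was higher. Of the 10 genes, 5 fell (Atp2a2, Pln, Ryr2, Trdn and Hrc), 1 rose (Casq2) and 4 were not called, so 6 were called where the background over 14088 genes was 14.4%. In the lower direction alone 6.26% of all genes were called, and in the higher direction 8.16%. The median change of the members was −0.22, beside −0.00 over all genes. The falls were close in size, from 20.9% for Ryr2 to 25.3% for Trdn. With library totals in place of TMM the higher share of all calls went from 56.6% to 77.8%, and the number of members called was 6 under every alternative run.

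**Figure D1:**
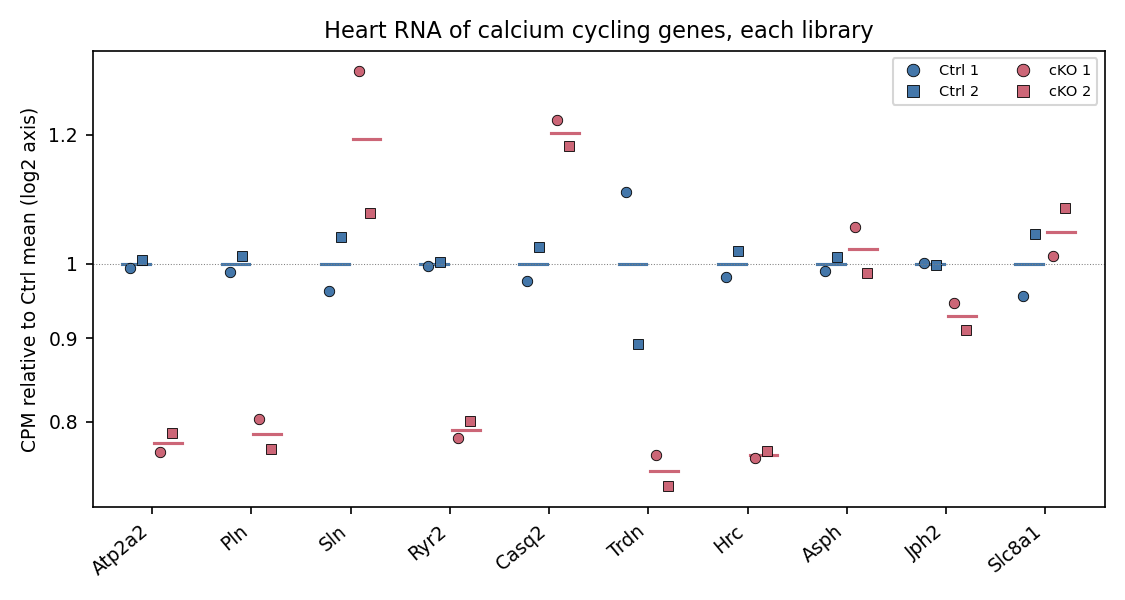
Heart RNA of the 10 genes. Each point is the CPM of 1 library divided by the Ctrl mean of that gene (log2 axis), with bars at group means. Both cKO libraries of Atp2a2, Pln, Ryr2, Trdn and Hrc lie below both Ctrl libraries, and both of Casq2 lie above. Jph2 (below) and Sln (above) are also separated but were not called. Asph and Slc8a1 overlap.

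The pump gene Atp2a2 (ENSMUSG00000029467, chromosome 5, 122453513 to 122502225) stood at 13351 and 13509 CPM in Ctrl and at 10291 and 10579 in cKO. The genotypes did not overlap, and the fall was 22.3% (log2 −0.36, SE 0.04, n = 2 against 2, adjusted p = 1.3e-05 in edgeR's test). Pln (ENSMUSG00000038583, chromosome 10, 53337686 to 53345999), whose product restrains the pump until it is phosphorylated, went from 1229 and 1256 CPM to 998 and 956 (−0.35, SE 0.05, adjusted p = 1.6e-04). Pump and inhibitor fell by like amounts, so that Pln counts per 100 Atp2a2 counts were 9.2 and 9.3 in Ctrl and 9.7 and 9.04 in cKO, which overlap. Sln (ENSMUSG00000042045, chromosome 9, 53850251 to 53853849), the pump inhibitor most abundant in atria, was scarce, at 9.2 and 9.93 CPM in Ctrl against 12.6 and 10.3 in cKO. It was not called (0.26, SE 0.14, adjusted p = 0.268), and the 2 groups were separated only by the gap between 9.93 and 10.3. Of 8 listed markers of the atria, where Sln is mainly made, 2 rose (Nppa by 3.60 and Bmp10 by 1.79) and 2 fell (Kcnj3 by 0.94 and Stard10 by 0.74). Bmp10 was scarce and overlapped between genotypes, at 0.58 to 3.18 CPM in Ctrl and 3.04 to 9.83 in cKO. Myl7 (0.01) and Myl4 (−0.04) were not called and overlapped too. The 8 summed to 267.5 to 310.1 CPM in Ctrl and 850.6 to 1139 in cKO, of which Nppa, a stress hormone gene as well, made up 61.81 to 70.99 and 686.9 to 919.3. The part of atrial tissue in the Sln values was not tested.

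Ryr2 (ENSMUSG00000021313, chromosome 13, 11553099 to 12106945) fell from 1478 and 1487 CPM to 1159 and 1187 (−0.34, SE 0.05, adjusted p = 1.4e-04). Casq2 (ENSMUSG00000027861, chromosome 3, 102086415 to 102146514) went the other way, from 979 and 1026 CPM to 1228 and 1184, a rise of 20.3% (0.27, SE 0.05, adjusted p = 0.00167). With both moves the Casq2 counts per 100 Ryr2 counts were 66.2 and 69 in Ctrl and 106 and 99.7 in cKO, with no overlap. Trdn (ENSMUSG00000019787, chromosome 10, 33083483 to 33476709) fell to 101 and 96.6 CPM from Ctrl values that lay apart from each other, 146 and 118 (−0.42, SE 0.08, adjusted p = 0.00313). Without Ctrl 1 its change was −0.26 (adjusted p = 0.0404) and without Ctrl 2 −0.57, so the direction and the call held while the size depended on the Ctrl library used. Hrc (ENSMUSG00000038239, chromosome 7, 45335269 to 45338973) fell from 714 and 741 CPM to 553 and 558 (−0.39, SE 0.05, adjusted p = 8.5e-05). Asph (ENSMUSG00000028207, chromosome 4, 9449085 to 9669344), which also encodes an enzyme that hydroxylates aspartate and asparagine, had 157 and 160.0 CPM in Ctrl and 167 and 156 in cKO, values that overlap (0.03, SE 0.06, adjusted p = 0.81).

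Jph2 (ENSMUSG00000017817, chromosome 2, 163336242 to 163398049) had 396 and 395 CPM in Ctrl and 374 and 360.2 in cKO. The libraries did not overlap, yet the change was not called (−0.11, SE 0.05, adjusted p = 0.207). Slc8a1 (ENSMUSG00000054640, chromosome 17, 81373105 to 81738387) overlapped, with 237 and 259 CPM in Ctrl and 251 and 268 in cKO (0.07, SE 0.06, adjusted p = 0.548). Since Atp2a2 fell, Slc8a1 counts per 100 Atp2a2 counts were higher in cKO, at 2.44 and 2.54 beside 1.78 and 1.92 in Ctrl. On the GRCm38.p6 annotation Pln overlaps Cep85l, Jph2 a lncRNA gene, Asph the gene Clvs1 and a pseudogene, and Trdn 4 lncRNA genes or pseudogenes. Without a statement on strand in the sources used here, reads of Pln, Jph2, Asph and Trdn cannot be told apart from those of these neighbours.

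In a whole heart, fewer cells of a type and less RNA per cell cannot be told apart. Of 10 cardiomyocyte markers 4 fell and 0 rose in heart RNA, with a median of −0.10 beside the members' −0.22. Their summed level was 58690 to 59410 CPM in Ctrl and 54460 to 54880 in cKO. Ttn, the giant sarcomere protein, fell by 0.38 (adjusted p = 2.4e-04), within the range of the falls among the members, Myh6 fell by 0.16 (adjusted p = 0.00805), and Tnnt2 overlapped between genotypes (−0.07). Of 7 endothelial markers 2 fell, Cldn5 by 0.49 and Pecam1 by 0.21, and their sum was 1605 to 1685 CPM in Ctrl and 1471 to 1488 in cKO. Of 6 fibroblast and 6 macrophage markers 0 were called by edgeR or DESeq2 (1 and 3 at an unadjusted p under 0.05 in edgeR), 1 of 8 smooth muscle and pericyte markers fell, and 3 of 5 erythroid markers rose, with sums of 1454 to 1588 CPM in Ctrl and 1590 to 2490 in cKO. None of these markers was listed at 0 in every heart RNA library except Myog and Tnnc2 of the 12 skeletal myogenic ones, of which 2 were tested. Acta1, which heart muscle makes too, rose from 164.4 to 211.5 CPM in Ctrl to 1191 to 1393 in cKO and made up nearly all of their sum (167.2 to 214.1 and 1195 to 1396), and Tnni2 was not called (0.12, adjusted p = 0.834). The part of cell makeup in the members' values was not tested.

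The footprint table counts reads per open reading frame, and a gene can have several frames, each named here by its length in residues. Frame coordinates were read from the table's identifiers, all 42 member frames lie inside their gene's GRCm38.p6 span, and no exon or UTR is assigned to them here. Of the 42 frames 36 passed the count filter, 11 fell and 1 rose, against a background of 12.8% of 17188 frames (5.88% lower and 6.92% higher). Their median change was −0.24, beside −0.00 over all frames. Frames of 1 gene share its RNA and are not independent of each other. On the longest frame of each gene, 4 of the 10 members fell and 0 rose (Atp2a2, Ryr2, Trdn and Hrc), against 16.8% of 13287 genes called in either direction, 7.4% lower and 9.37% higher. Of the 10 cardiomyocyte markers 2 fell in longest-frame footprints, Myh6 by 0.34 and Actn2 by 0.23, with a median of −0.17 (members −0.24) and a sum of 179700 to 183700 CPM in Ctrl and 162900 to 164000 in cKO, and Ttn was not called (−0.07). Of 6 endothelial markers tested 1 fell, Cdh5 by 0.36 (median −0.27), and of 8 smooth muscle and pericyte markers 1, Acta2, by 0.42. Their part in the members' footprint values was not tested. On the frame with the most footprints 5 members fell, with Pln added, against 16.4% of 13514 genes (7.33% in the lower direction). Library totals moved the higher share of calls from 54.1% to 71.1% over every frame and from 55.9% to 71% on longest frames.

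Atp2a2 has 7 listed frames, and the short ones upstream hold most of the footprints counted for it. Shares below are of counted footprints, which were few beside the gene's RNA. A 38-residue frame at chr5:122501871-122501987, which ends 185 bases before the longest frame begins, held 64.2% of the gene's footprints. An 11-residue frame between them, at chr5:122501737-122501772, held 25.2%. The longest frame, 1044 residues at chr5:122457151-122501685, held 7.48%, and a 998-residue frame with the same first base held 2 and 4 footprints in Ctrl and 0 and 12 in cKO. The other 3 frames lie downstream and held 180, 134 and 32 footprints in all. All are on the minus strand. Neither the 1044- nor the 998-residue frame was matched to an isoform of the pump, since no protein sequence was at hand.

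**Figure D2:**
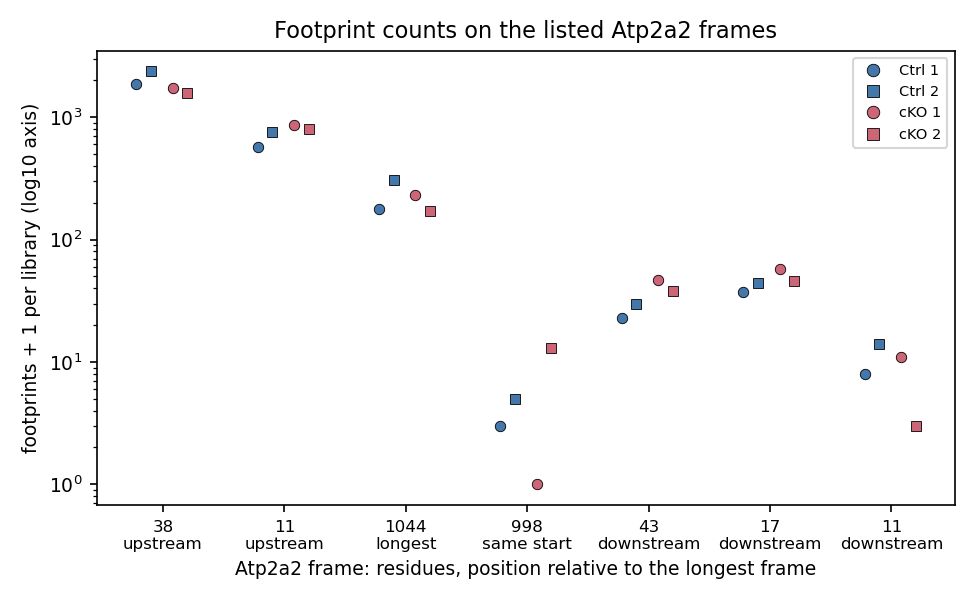
Footprints on the 7 listed Atp2a2 frames. Each point is the count of 1 library plus 1 (log10 axis, not scaled for depth), and frames are ordered along the gene from upstream to downstream. The 38-residue frame has 1585 to 2372 footprints per library, the 1044-residue frame 169 to 307.

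Both the short upstream frame and the longest frame fell in cKO hearts. The 38-residue frame went from 77.2 and 71.6 CPM in Ctrl to 43.1 and 45 in cKO, a fall of 40.7% with no overlap (−0.76, SE 0.09, adjusted p = 6.3e-05 in edgeR's test). The longest frame went from 7.32 and 9.27 CPM to 5.65 and 4.8, also with no overlap (−0.67, SE 0.18, adjusted p = 0.0219). That call rested on few footprints and was lost without Ctrl 2 (adjusted p = 0.145) or without cKO 2 (0.156). The 11-residue upstream frame held 23.3 and 22.8 CPM in Ctrl and 21.3 and 22.6 in cKO and was not called (−0.07, SE 0.11, adjusted p = 0.738). Its difference from the change of the whole gene was 0.48, at an adjusted p of 0.0514 in edgeR's test of frames within genes, just outside the threshold. For the 38-residue frame that difference was −0.20 (adjusted p = 0.777), and for the longest −0.12 (adjusted p = 1).

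Of all footprints counted on Atp2a2 frames, the 38-residue frame took 69.8% and 67.3% in the Ctrl libraries. In the cKO libraries it took 59.2% and 60%. Wilson 95% binomial intervals were 68.05 to 71.52 and 65.74 to 68.84 in Ctrl and 57.42 to 60.96 and 58.07 to 61.8 in cKO. They cover counting error only. The difference of −8.99 percentage points had p = 0.333 in a two-sided exact permutation test, the smallest that 2 libraries against 2 allow. Both upstream frames together took 90.9% and 88.8% in Ctrl and 88.4% and 90% in cKO, values that overlap.

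The small number of footprints on the longest Atp2a2 frame limits any statement on the pump protein. Footprint CPM over RNA CPM in the Ctrl libraries, neither divided by length, was 0.00808 for all Atp2a2 frames, and 2.24% of 8389 genes with at least 10 RNA CPM were lower. The median over those genes was 0.787. In 237 genes whose longest frame shares its first base with another frame at least 90% as long, as in Atp2a2, the median ratio was 0.0279, against 0.808 in the 8152 others. The counting rule for footprints that lie in more than 1 frame was not given in the sources used here. Its part in the low count and in the shares of the frames was not tested.

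The remaining pump regulators differed in which frame carried the footprints. Pln has 12 listed frames, and a 75-residue frame at chr10:53337763-53344022 held 95.8% of its footprints. The longest, of 76 residues and the same first base, held 0.31%. No protein sequence was at hand, so neither frame was matched to phospholamban. The 75-residue frame fell from 5258 and 4448 CPM in Ctrl to 3497 and 3720.3 in cKO (−0.43, SE 0.09, adjusted p = 0.00359), with no overlap. The 76-residue frame had 17.4 and 13.5 CPM in Ctrl and 11 and 12.9 in cKO and was not called (−0.36, adjusted p = 0.126). None of the other 9 Pln frames tested was called, among them a 37-residue frame downstream with 3.52% of the footprints (−0.29, adjusted p = 0.0939). Sln has 2 frames. Its 31-residue frame had 1.07 and 2.9 CPM in Ctrl and 4.15 and 2.33 in cKO, which overlap (0.67, SE 0.38, adjusted p = 0.289). Without Ctrl 2 that value was 1.60 and passed (adjusted p = 0.0108), so 1 library decided it. The 11-residue Sln frame overlapped too (0.47, adjusted p = 0.446).

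**Figure D3:**
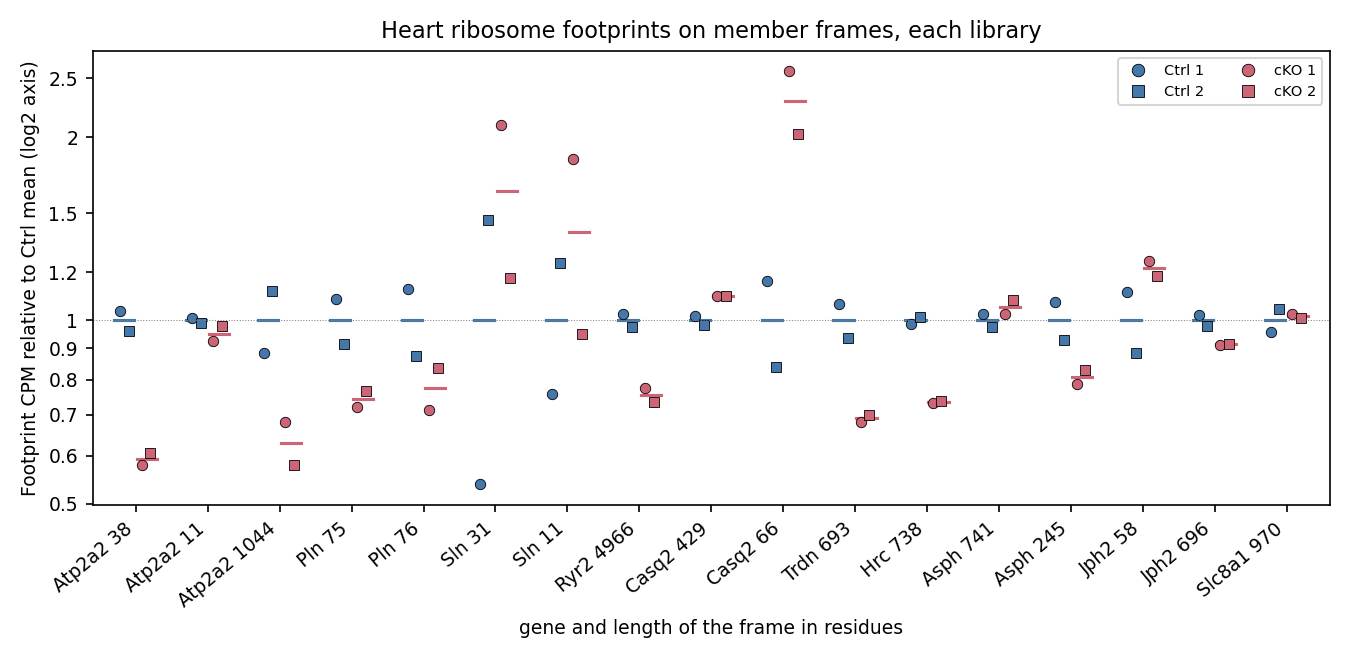
Heart footprints on the main frames of the 10 genes. Each point is the CPM of 1 library divided by the Ctrl mean of that frame (log2 axis), with bars at group means, and numbers after the gene give residues. Atp2a2 38 and 1044, Pln 75, Ryr2, Trdn, Hrc and Asph 245 lie below both Ctrl libraries in both cKO libraries. The same holds for Atp2a2 11, Pln 76 and Jph2 696, which were not called. Casq2 66 lies at 2.29 times the Ctrl mean, and both Sln 31 groups are widely spread.

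In the release unit, footprints of Ryr2, Trdn and Hrc fell beside their RNA. The 4966-residue Ryr2 frame, with 99.8% of the gene's footprints, went from 1381 and 1317 CPM in Ctrl to 1043 and 993 in cKO (−0.41, SE 0.08, adjusted p = 0.00215). A 43-residue frame 61 bases upstream of it went from 3.99 and 3.2 CPM to 1.63 and 1.85 (−1.04, SE 0.26, adjusted p = 0.0143), a call lost without Ctrl 1 (0.0716) or cKO 1 (0.0859). Its difference from the gene, −0.64, was not called (adjusted p = 0.551). Trdn has a single frame of 693 residues, which fell from 856 and 754 CPM to 548 and 564 (−0.53, SE 0.08, adjusted p = 5.2e-04). The 738-residue Hrc frame fell from 2885 and 2972 CPM to 2145 and 2161 (−0.44, SE 0.07, adjusted p = 7.7e-04), and a 15-residue frame 38 bases upstream from 4.57 and 4.17 CPM to 2.49 and 2.76 (−0.73, adjusted p = 0.0402). The call on the 15-residue frame was lost in DESeq2 (0.0926), with library totals (0.0637) and without any 1 of the 4 libraries (0.0537 to 0.209).

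Casq2 RNA rose, and footprints on its main frame were not called. The 429-residue frame, with 99.55% of the footprints, had 2318 and 2249 CPM in Ctrl and 2500.4 and 2504 in cKO, which did not overlap (0.13, SE 0.07, adjusted p = 0.271). A 66-residue frame at chr3:102145473-102145673, which begins 42 bases past the end of the 429-residue frame, rose from 6.38 and 4.62 CPM to 14.1 and 11.1 (1.21, SE 0.18, adjusted p = 4.2e-04). It rests on 155 and 153 footprints in Ctrl and 571 and 392 in cKO. It was also the 1 member frame of 34 tested that changed apart from its gene, by 1.08 (adjusted p = 0.00203), against a background of 0.232% of 6478 frames. That second call was lost without Ctrl 2 (0.185) or cKO 1 (0.227), while the rise of the frame itself ranged from 0.98 to 1.45 without each library in turn.

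Asph has 5 listed frames, of which 2 shorter ones were called. The 741-residue frame, of the length class of the hydroxylase, had 119 and 113 CPM in Ctrl and 119 and 125 in cKO and was not called (0.07, SE 0.08, adjusted p = 0.643). A 245-residue frame with the same first base and 45.5% of the footprints fell from 126 and 109 CPM to 92.9 and 98 (−0.30, SE 0.09, adjusted p = 0.0398). A 35-residue frame within the span fell from 8.23 and 5.83 CPM to 4.1 and 4.57 (−0.69, SE 0.20, adjusted p = 0.0348). Both calls were lost with library totals (0.116 and 0.0547) and without Ctrl 1, cKO 1 or cKO 2, that of the 35-residue frame also in DESeq2 (0.056), and neither frame was called as changing apart from its gene (adjusted p = 0.819 and 0.323). Frames with 1 first base share footprints near their start, and the rule that divides these was not stated.

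Jph2 footprints lay mainly upstream of its longest frame. A 58-residue frame at chr2:163397705-163397981, ending 178 bases before the 696-residue frame begins, held 65.1% of the gene's footprints, and the 696-residue frame 30%. The 58-residue frame had 144 and 114 CPM in Ctrl and 161 and 153 in cKO, with no overlap, and was not called (0.28, SE 0.10, adjusted p = 0.0851). It passed under 4 alternatives: with library totals (0.0211), without Ctrl 1 (0.00219), with the replicate block (0.013) and with no filter beyond 1 count (0.0136). Its size depended on the Ctrl library used, at 0.46 without Ctrl 1 and 0.12 (adjusted p = 0.448) without Ctrl 2. The 696-residue frame had 71.4 and 68.4 CPM in Ctrl and 63.8 and 64 in cKO and was not called (−0.13, SE 0.09, adjusted p = 0.389). A 31-residue frame that overlaps the 58-residue one fell from 5.8 and 5.77 CPM to 3.8 and 3.72 (−0.62, SE 0.19, adjusted p = 0.0421). That call was lost in DESeq2 (0.1), with library totals (0.0729) and without any 1 library (0.0848 to 0.162). Slc8a1 has a single frame of 970 residues, with 458 and 501 CPM in Ctrl and 491 and 485 in cKO, which overlap (0.02, SE 0.08, adjusted p = 0.895).

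Divided by length, the main frames spanned a wide range in Ctrl hearts. The 75-residue Pln frame had 7010 and 5930 footprint CPM per 100 residues, Casq2 540 and 524, and Hrc 391 and 403. The upstream frames of Jph2 (248 and 196) and Atp2a2 (203 and 188) came next and overlapped each other, followed by Trdn (123 and 109). Slc8a1 (47.2 and 51.6) and the 245-residue Asph frame (51.6 and 44.7) overlapped, and Ryr2 lay below them (27.8 and 26.5). At the low end stood the 741-residue Asph frame (16 and 15.3), the 696-residue Jph2 frame (10.3 and 9.82), the 31-residue Sln frame (3.45 and 9.35) and the 1044-residue Atp2a2 frame (0.702 and 0.888). In cKO hearts the 38-residue Atp2a2 frame stood at 114 and 119 and Trdn at 79 and 81.4 on this scale. The value of the 1044-residue Atp2a2 frame is of counted footprints only. How those shared with the 998-residue frame were counted was not given. The same limit holds for the Asph and Pln frames named here, which also share a first base with another frame.

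Translational efficiency, the ratio of footprints on the longest frame to RNA, was compared between genotypes by an interaction term over the 8 heart libraries. No member was called, where 0.112% of 12476 genes were. In edgeR 1 member was at an unadjusted p under 0.05, and DESeq2 likewise called 0 with 1 at an unadjusted p under 0.05 and gave no adjusted p for Sln. That member was Atp2a2, with a log2 change in efficiency of −0.32 (approximate 95% interval −0.59 to −0.05, adjusted p = 0.49). It sets the 1044-residue frame, with 7.48% of the gene's counted footprints, against RNA counted over the whole gene. The change ranged from −0.46 to −0.13 without 1 library pair at a time. Intervals here were built from the SE and the normal distribution, and are narrower than edgeR's test with few libraries would give. Casq2 stood at −0.14 (−0.31 to 0.03), Trdn at −0.12 (−0.36 to 0.13) and Ryr2 at −0.07 (−0.24 to 0.10). For the 9 members other than Sln the intervals lay between −0.59 and 0.25, and for Sln the interval ran from −0.44 to 1.23. The bound of 0.25 was that of Pln on its 76-residue frame, which held 0.31% of its footprints. On the 75-residue frame, which held most of them, Pln stood at −0.09 (−0.30 to 0.12, adjusted p = 0.845). With the frame holding the most footprints in place of the longest, Atp2a2 had −0.40 (−0.58 to −0.22, adjusted p = 0.121) and Jph2 0.38 (0.15 to 0.62, adjusted p = 0.32), where 0.126% of 12662 genes were called. Both values describe short upstream frames and not the protein of the gene. The Jph2 value on its longest frame was −0.03. No label says that an RNA library and a footprint library came from the same heart.

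**Figure D4:**
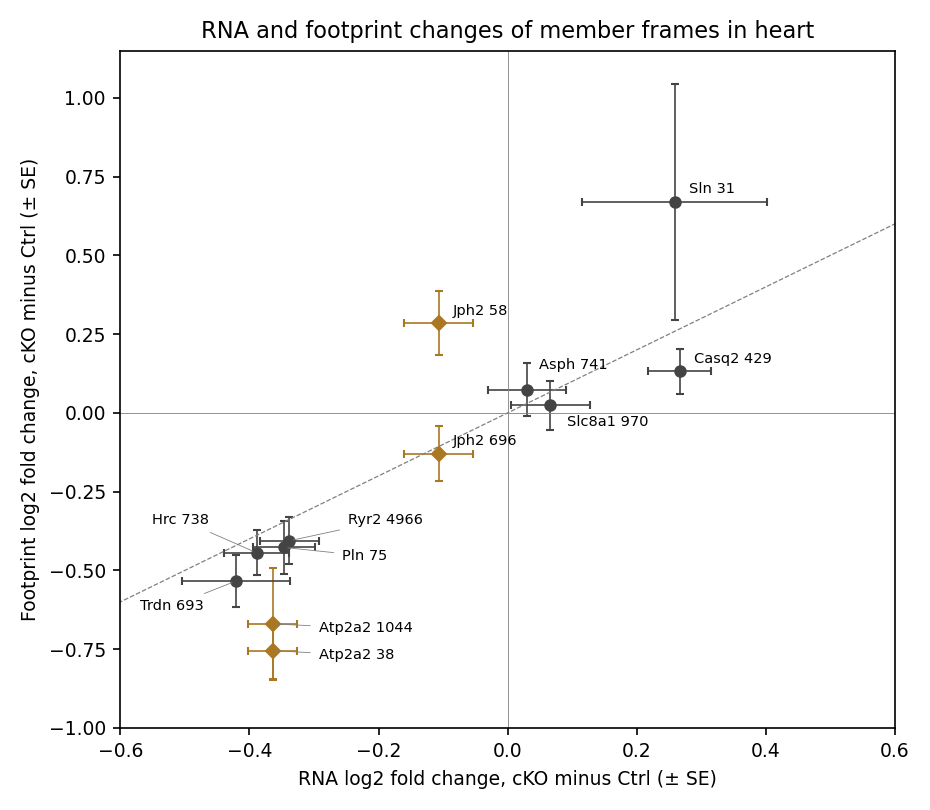
RNA and footprint changes of the 10 genes in heart. Points are log2 fold changes of cKO against Ctrl with SE bars (n = 2 against 2 in each assay), the dashed line marks equal change, and diamonds mark the short upstream and the longest frame of Atp2a2 and Jph2. Ryr2, Pln, Hrc and Trdn lie near the line at −0.34 to −0.53, both Atp2a2 frames below it, and the 58-residue Jph2 frame above it.

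A wider list of 74 genes of the calcium cycle, sorted into 6 groups, was read in the same fits. In heart RNA 70 were tested, 7 rose and 12 fell, with a median of −0.08, where 8.16% of all genes rose and 6.26% fell. The share of rises was thus near that of all genes. Among surface channels 5 of 15 tested fell and 1 rose. Cacna2d1, an auxiliary subunit of the L-type channel, fell from 141 and 159.7 CPM in Ctrl to 105.3 and 109 in cKO (−0.49, adjusted p = 1.9e-04). The pore gene of that channel, Cacna1c, named outside the rule after its values were seen, fell by 0.34 (adjusted p = 0.00219). Of the T-type channel genes Cacna1g fell by 0.65 (adjusted p = 8.4e-04) and Cacna1h rose from 15.9 and 18.02 CPM to 36.2 in both cKO libraries (1.09, adjusted p = 3.0e-06). Footprints of all 4 were called in the same direction, at −0.55 for Cacna2d1, −0.40 for Cacna1c, −0.61 for Cacna1g and 1.06 for Cacna1h.

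Among the other groups, the 8 genes of dyad structure had 3 falls and 0 rises. Cmya5, whose product ties the dyad to the sarcomere, fell from 423.4 to 427.1 CPM in Ctrl to 230.4 to 234.6 in cKO (−0.87, adjusted p = 4.4e-08), and its footprints by 1.02. Tcap, a Z-disc protein, fell by 0.26 in RNA. Of 9 tested genes for SERCA pumps and small regulators 4 rose and 2 fell: S100a1, which binds the pump and Ryr2, rose by 0.34, and the sarcoplasmic reticulum genes Tmem38a, a potassium channel of the store, and Srl, the luminal protein sarcalumenin, fell by 0.41 and by 0.23. In the group of release channels and partners 0 of 13 were called in RNA by edgeR or DESeq2, with 5 at an unadjusted p under 0.05 in edgeR, and 4 of 14 rose in footprints, Fkbp1a (0.37), Calm2 (0.29) and Sri (0.26) among them. In the group of kinases, phosphatases and anchors Prkaca (−0.33) and Pde4d (−0.52) fell and Camk2d rose (0.26), of 16 tested. Smdt1, a subunit of the mitochondrial uniporter, rose by 0.29, alone among 9 mitochondrial genes. In longest-frame footprints 9 of 70 rose and 10 fell, where 9.37% of all genes rose and 7.4% fell. In translational efficiency 0 of 67 were called by edgeR, where 0.112% of all genes were, with 11 at an unadjusted p under 0.05. DESeq2 called 0 as well and gave no adjusted p for 21 of them.

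H9C2 cells held RNA of 6 members well above the detection limit, and the other 4 were at or near 0. Of the 10 members 7 passed the count filter, 2 rose (Pln and Slc8a1), 2 fell (Casq2 and Asph) and 3 were not called, against a background of 25.1% of 14801 genes (13.6% higher and 11.5% lower). The filter kept a gene if enough libraries held counts, so the 7 are not all members. Ryr2 had 0 counts in all 6 libraries, which allows up to 0.0332 CPM per library (3 counts of its total, counting error only, and if these values are counted reads, which the sources used here do not state). Sln had 4 counts in WT 2 and 0 in the other 5 libraries. Trdn had 15, 5 and 0 counts in WT and 0, 6 and 0 in null cells. Hrc was near the floor as well, with 0, 14 and 10 counts in WT and 15, 12 and 11 in null cells (0.58, SE 0.90, adjusted p = 0.685). H9C2 RNA at this depth thus held the pump, its inhibitor, the buffer, the exchanger, Jph2 and Asph, without detectable Ryr2.

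**Figure D5:**
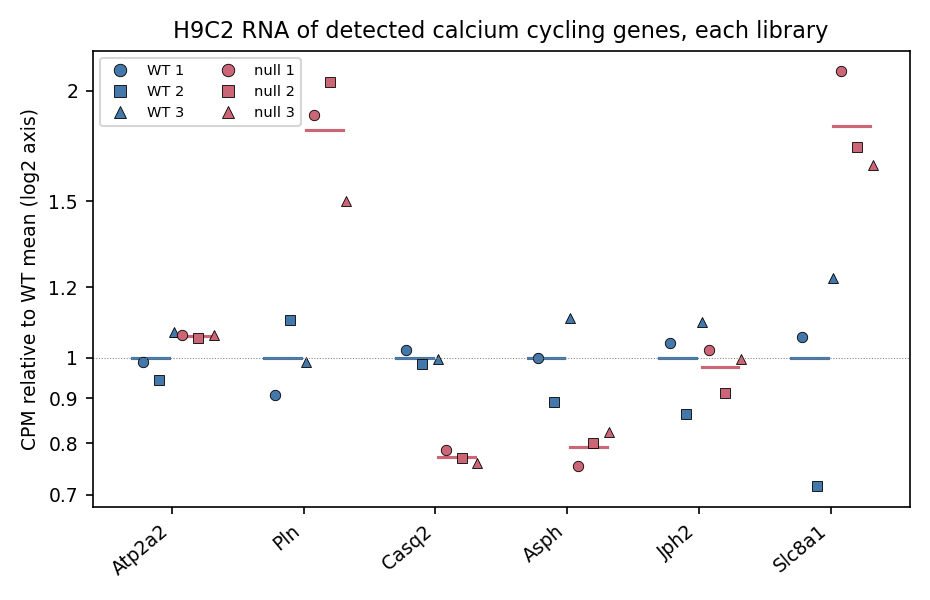
H9C2 RNA of 6 members. Each point is the CPM of 1 library divided by the WT mean of that gene (log2 axis), with bars at group means. All 3 null libraries of Pln and Slc8a1 lie above all 3 WT libraries, all 3 of Casq2 and Asph lie below, and Atp2a2 and Jph2 overlap.

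Pln rose from 2.65, 3.21 and 2.88 CPM in WT to 5.46, 5.96 and 4.37 in null cells (0.85, SE 0.15, n = 3 against 3, adjusted p = 0.00411 in edgeR's test). Slc8a1 rose from 39.1, 26.5 and 45.5 CPM to 77.9, 64 and 61.1 (0.87, SE 0.18, adjusted p = 0.00852). The WT libraries of Slc8a1 were spread widely, and its lowest null library lay above its highest WT library. Atp2a2, at 390, 371 and 421 CPM in WT and 418, 414 and 418 in null cells, overlapped and was not called (0.08, SE 0.06, adjusted p = 0.322). Pln counts per 100 Atp2a2 counts were thus 0.679 to 0.865 in WT and 1.05 to 1.44 in null cells (9.04 to 9.7 in the hearts, which were counted in another species and annotation).

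Casq2 fell in H9C2 without overlap, from 543, 524 and 531 CPM in WT to 419, 411 and 405 in null cells (−0.37, SE 0.04, adjusted p = 4.3e-04). Asph fell from 75.8, 67.5 and 84.1 CPM to 57.2, 60.7 and 62.5 (−0.33, SE 0.08, adjusted p = 0.0181), a call lost without WT 1 (0.0649), null 1 (0.0814), null 2 (0.0635) or null 3 (0.0503). Jph2 had 77.2, 64.1 and 81.5 CPM in WT and 75.7, 67.8 and 74.1 in null cells, which overlap (−0.03, SE 0.09, adjusted p = 0.824). Beside these values the listed cardiomyocyte markers summed to 22.95 to 25.34 CPM in WT and 7.84 to 8.918 in null cells, most of it Tnnt2 (−1.57, adjusted p = 1.4e-05). Of the skeletal myogenic markers, which this line also expresses, Myod1 rose by 0.71 and Myog fell by 1.10, and 4 of 9 tested rose and 1 fell. Fibroblast markers fell in 4 of 5 tested, Col1a1 by 0.29. The part of these shifts in the members' values was not tested.

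Among the 74 further genes of the cycle 59 were tested in H9C2, 17 rose and 6 fell, where 13.6% of all genes rose and 11.5% fell. The share of falls was near that of all genes. Atp2a3, a pump isoform of non-muscle cells, rose from 4.11 to 4.32 CPM in WT to 12.9 to 13.2 in null cells (1.64, adjusted p = 9.0e-06). Jsrp1, which binds the skeletal release machinery, rose by 1.34. Store-operated entry genes Stim1 (0.30), Stim2 (0.37) and Orai1 (0.54) rose, as did the uniporter genes Mcub (1.02) and Mcu (0.27). Sri, a Ryr2 partner, fell by 0.52, Dysf, of membrane repair, by 0.73 and Akap7, which anchors protein kinase A, by 0.82.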

How the data were processed

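The authors deposited whole-number counts with no normalization: counts per gene (heart, H9C2) and footprints per open reading frame (heart). Per the submitters' processing notes, the builds were GRCm38 and Rnor_6.0, the aligners STAR, HISAT2, Bowtie and Bowtie2, and the other tools cutadapt, featureCounts, StringTie and DESeq2. Their roles, annotation and strand setting were not given in the sources used here. H9C2 columns carry names of annotation files, and whether these counts were derived from StringTie coverage rather than counted reads was not given. Groups and replicate numbers came from the labels, and every column of per-sample values was matched by name. The tRNA table was not used here, and some genes that the rule names are not reported.

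Each comparison was fitted over all genes or frames with edgeR 4.0.16 (quasi-likelihood test, TMM, filterByExpr, Benjamini-Hochberg at 0.05) in R 4.3.3, 2 against 2 in heart and 3 against 3 in H9C2. SE is the absolute log2 fold change divided by the square root of F. Frames changing apart from their gene were tested with diffSpliceDGE. Fits were tested on simulated data. Alternatives were relative-log-expression factors, library totals, DESeq2 1.42.0, limma-voom (limma 3.58.1; not for efficiency or frames within genes), filters of 1 count in all or of 50 counts per library of a group, the replicate block, other frames and leaving out each replicate. The members, gene lists and alternatives were chosen with earlier results of these data known. Named genes were the members with every frame of theirs, up to 3 genes per list and comparison with the smallest adjusted p, and defining markers.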

Additional observations from a re-analysis of the deposited data

Results flagged for a closer look

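A pair of members went opposite ways in heart and in H9C2, and the difference between the systems was not tested. Pln had a log2 fold change of −0.35 in heart RNA, lower in 2 of 2 cKO libraries than in either Ctrl library, and of 0.85 in H9C2, higher in 3 of 3 null libraries than in any WT library. Casq2 had 0.27 in heart RNA, higher in 2 of 2 cKO libraries, and −0.37 in H9C2, lower in 3 of 3 null libraries. Hearts and cells differ in species, tissue, depth and annotation.

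The 66-residue Casq2 frame changed by 1.08 more than its gene (edgeR's test of frames within genes, adjusted p = 0.00203). It was higher in 2 of 2 cKO libraries, while the 429-residue frame before it was not called.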

How the results depend on the processing

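Of 133 values of counts and shares under alternatives, 110 stayed within 1.5 times the reported count or within 1 SD and 23 did not. Of 551 values for single members 497 kept direction and side of the threshold, 31 lost the call, 5 gained it and 18 changed sign. The cause was not tested.

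Heart RNA genes called numbered 1080 in DESeq2 and 1155 to 2002 without each replicate in turn. Without each replicate, longest frames called numbered 1141 to 1928, frames 1115 to 2270 (member frames 7 to 11), efficiency genes 0 to 9, H9C2 genes 2354 to 4455 and frames changing apart 6 to 8 (member frames 0 to 1). Efficiency genes were 46 in DESeq2. Counting both upstream Atp2a2 frames together, an alternative added after the data were seen, gave a share difference of −0.61 percentage points.

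Whether replicate numbers pair the heart samples could not be decided. Same-numbered Ctrl and cKO libraries correlated at 0.148 in heart RNA and 0.0444 in footprints. Differently numbered ones gave the exact negatives, −0.148 and −0.0444, so these are not separate measurements and their size does not test pairing. In H9C2 same-numbered libraries correlated at −0.0171, 0.343 and −0.345. With the replicate block 2745 genes were called in heart RNA, 2740 in longest-frame footprints, 2806 of all frames, 132 in efficiency and 3147 in H9C2. In H9C2 not every library correlated best with its own number.

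Signs that changed all belonged to values not called. Ranges here are over leaving out each replicate. In heart RNA, Asph ranged from −0.018 to 0.073. In H9C2, Jph2 ranged from −0.129 to 0.032 and was 0.003 with library totals, and Hrc from −0.002 to 1.272. For frames, the 11-residue Sln frame ranged from −0.094 to 0.887 and Slc8a1 from −0.039 to 0.085, and the 11-residue upstream Atp2a2 frame was 0.005 with library totals. For efficiency, Jph2 ranged from −0.055 to 0.024, Asph from −0.027 to 0.145, Sln from −0.041 to 1.290, Pln from −0.217 to 0.176 and Slc8a1 from −0.083 to 0.028. With summed frames, efficiency was 0.218 for Jph2 and −0.157 for Asph, and on the frame with the most footprints 0.384 for Jph2. A group left with 1 library was assumed to vary like the others. Counts were few on the longest Atp2a2 frame, on both Sln frames, and for Trdn, Sln and Hrc in H9C2, which limits the precision of those values.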
